A study of Mus musculus with 32 samples.

Results

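The cells described here are the mesoderm-derived cells picked from the somites of mouse embryos at embryonic day (E) 9.5. They were chosen by 2 labels, a cell name that begins with the somite and E9.5 and membership of the mesoderm-derived group, which the study built from the inferred activity of transcription factors and their targets. This gave 81 of the 875 mesoderm-derived cells and of the 1916 cells in all, with 24 cells from embryo 1, 26 from embryo 2 and 31 from embryo 3. One profile of embryo 3 occurred more than once and was counted once, which left 80 distinct cells (24, 26 and 30). Of the 92 somite cells of E9.5 in the files, 10 were in the neuronal group, all from embryo 2.

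All embryos were C57BL/6J, with no allele or treatment named. The comparison cells were 336 mesoderm-derived cells of other E9.5 organs (heart, intestine, liver, lung and skin, with 5 brain cells that entered shares but no embryo mean) and 119 distinct somite cells of later embryos, 2 at E10.5 and 2 at E11.5. By the labels, E9.5 embryo 2 was female and the others male, and E9.5 embryos 1 and 2 were sequenced on HiSeq 2500 and all others on HiSeq 4000, whereas the methods name only the latter instrument. The somite cells of E9.5 embryo 3 shared 1 pooled sample with skin and intestine. Neither the labels nor the methods give the axial level from which somites were taken.

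Somites are blocks of paraxial mesoderm that bud off in pairs from head to tail along the neural tube. The ventral part of a somite loosens into the sclerotome, the source of vertebrae and ribs, which is marked by *Pax1* and *Pax9*, while the dorsal part stays epithelial as the dermomyotome, marked by *Pax3* and *Dmrt2*, and forms the myotome, the first skeletal muscle. Hox genes, numbered by paralog group from front to back, are switched on in somites according to their axial position.

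Depth ran from 30142 to 1982504 unique molecular identifiers (UMIs, tags that mark single molecules) per E9.5 somite cell, and 75 of the 80 cells had at least 100000. The median was 342426.5 in embryo 1, 1248226.5 in embryo 2 and 364116.5 in embryo 3, against 209007 over the later somite cells. Levels are means over the cells of an embryo of log2(TPM/10 + 1), where TPM stands for UMIs per 1000000 of the cell without gene length, and a gene was called expressed in a cell at 1 or more, which is 10 TPM. Differences are on this scale, which understates changes of genes at low levels, and because values are not per length they are compared between samples and not between genes. Tests used limma on embryo means with Benjamini-Hochberg adjustment, a call required both an adjusted p under 0.05 and a difference of 1 or more, and the p-values measure only the spread among these few embryos.

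One later sample stood apart. In E11.5 embryo 2, 27 of 30 cells expressed a gene of the pair *Pax3* and *Dmrt2* together with one of the pair *Pax1* and *Pax9*, and all 30 expressed *Myog*, with up to 10626 genes detected in a cell. The calls on stage are therefore also given without this embryo. The step from E10.5 to E11.5, the list medians and the shares of later cells are given only with it.

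The sequences of 2 genes are shown because their transcripts were called higher in the E9.5 somite and no cell of the other E9.5 organs expressed them, as described in the next paragraphs. *Uncx* encodes a homeodomain protein of the posterior part of each somite, and *Pax1* a paired-box protein of the sclerotome. Each line gives 300 bases around the RefSeq start site on GRCm38.p6, 250 before and 50 after it, on the plus strand. The windows are chr5:139543648-139543947 for *Uncx* and chr2:147364744-147365043 for *Pax1*. GENCODE M21 places the start of *Uncx* at 139543494 and that of *Pax1* at 147361925, so both windows lie inside the annotated genes there. Capitals mark TAATTA, a homeodomain core motif that reads the same on both strands.
Uncx: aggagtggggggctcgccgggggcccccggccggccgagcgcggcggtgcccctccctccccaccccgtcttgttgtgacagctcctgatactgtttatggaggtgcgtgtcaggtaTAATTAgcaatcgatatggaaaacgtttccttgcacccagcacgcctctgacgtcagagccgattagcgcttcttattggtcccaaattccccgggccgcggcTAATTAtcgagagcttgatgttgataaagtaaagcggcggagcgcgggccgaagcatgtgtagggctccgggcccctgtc
Pax1: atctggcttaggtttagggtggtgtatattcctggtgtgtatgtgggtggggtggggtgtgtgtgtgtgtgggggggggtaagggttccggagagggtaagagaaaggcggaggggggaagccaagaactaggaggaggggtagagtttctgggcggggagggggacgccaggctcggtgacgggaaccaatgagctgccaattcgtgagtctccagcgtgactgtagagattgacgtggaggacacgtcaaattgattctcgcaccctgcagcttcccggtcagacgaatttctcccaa
The *Uncx* window held this motif at 2 places and the *Pax1* window at 0, and 5.29% of 32851 mouse promoters of the same length held it. A second palindrome, the E-box CAGCTG, was in neither window and in 16.3% of promoters. Of the 27 genes called higher in the E9.5 somite, 17 had an entry in the promoter table.

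All 4 genes that mark somite cells by their label were higher in the E9.5 somite than in the other E9.5 organs. *Meox1*, a homeodomain factor of the paraxial mesoderm on chromosome 11 (101877510 to 101894374, minus strand, GRCm38), had a level of 5.02 in embryo 1, 5.20 in embryo 2 and 4.00 in embryo 3, while the 12 means of other organs ran from 0.03 to 0.89. No somite embryo overlapped with another organ. The difference was 4.49 (SE 0.23, adjusted p 1.16e-07), and 75 of 80 somite cells expressed the gene (93.8%, exact 95% interval 86 to 97.9) against 21 of 336 cells elsewhere (6.25%).

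*Tcf15*, a basic helix-loop-helix factor needed for somites to form an epithelium, had levels of 3.10, 1.10 and 2.48 in embryos 1, 2 and 3 and 0.00 to 0.49 in the other organs (difference 2.14, SE 0.28, adjusted p 0.0026). *Pax3*, the paired-box factor of the dermomyotome, had 1.30, 0.43 and 2.69 against 0.00 to 0.30 (1.40, SE 0.29, adjusted p 0.038). *Pax1* had 1.69, 2.04 and 0.62 against 0.00 to 0.02 (1.45, SE 0.19, adjusted p 0.0026). Each of these was above the other organs in all 3 embryos, but the embryos differed among themselves, with *Pax3* at its lowest in embryo 2 and *Pax1* at its lowest in embryo 3. *Pax3* lost its call without embryo 3 (0.80, adjusted p 0.153), and *Tcf15* did so too (2.02, adjusted p 0.138). Without the heart *Pax3* had an adjusted p of 0.0952. Their positions on GRCm38 are chromosome 2 from 152143561 to 152149097 for *Tcf15* and chromosome 1 from 78101267 to 78197134 for *Pax3*.

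Over single cells, 78 of 80 (97.5%, exact interval 91.3 to 99.7) expressed at least 1 of the 4 genes and 3 expressed all of them, against 38 and 0 of 336 cells in the other organs. A share of 0 in 336 cells allows up to 0.893% of cells. These intervals and limits cover counting error only. *Pax1*, *Pax9*, *Uncx*, *En1* and *Myog* were each expressed in 0 of the 336 cells. In cells thinned to 100000 UMIs, *Myog* was expressed in 8 of 318 (2.52%) and *En1* in 6 of 318 (1.89%), both above 0.893%. The *Myog* cells included 5 of 35 in the intestine (14.3%), against 14 of 75 thinned somite cells (18.7%). *Pax1* and *Pax9* were each expressed in 1 of the 318 and *Uncx* in 0. For *Myog* and *En1* the count of 0 thus depended on depth.

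Of 14678 genes tested, 71 were called between the E9.5 somite and the mean of the other 5 E9.5 organs (0.484%), 27 higher (0.184%) and 44 lower (0.3%), each in the same direction in all 3 embryos. With the embryo as a block, since organs of 1 embryo come from the same animal, 115 were called, 50 higher and 65 lower, with all 71 among them. Leaving out an embryo reduced the calls, to 13 without embryo 1, 35 without embryo 3 and 0 without embryo 2, where 909 genes had an unadjusted p under 0.05 in limma and *Meox1* had a difference of 4.24 (adjusted p 0.0975). The heart had means of embryos 1 and 2 only, and the lung and skin of embryos 2 and 3 only. Without embryo 2, the heart, lung and skin thus each had 1 mean. EdgeR on the summed UMIs of all 3 embryos called 162.

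The list of paraxial mesoderm genes had 4 of its 16 members called higher (*Meox1*, *Meox2*, *Tcf15* and *Uncx*), where 0.184% of all genes tested were. Of these 4, *Meox1* and *Tcf15* are also label genes, and *Uncx* had to differ, as given below. In the list 15 members had a difference above 0, and the median was 1.13 against −0.02 over all genes. *Meox2*, the paralog of *Meox1*, had levels of 1.38, 2.25 and 1.32 (difference 1.49, SE 0.20, adjusted p 0.00261), above the 0.00 to 0.90 of other organs in every embryo. *Uncx* was nearly equal in the 3 embryos, at 1.33, 1.27 and 1.16, with at most 0.01 in any other organ (1.25, SE 0.05, adjusted p 2.29e-08). *Uncx* and *Pax1* entered the test only through the somite cells, since no other cell expressed them, so they had to differ and their p-values add no support. Its 30 expressing cells of 80 were spread over embryos 1 (8 of 24), 2 (9 of 26) and 3 (13 of 30).

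**Figure D1:**
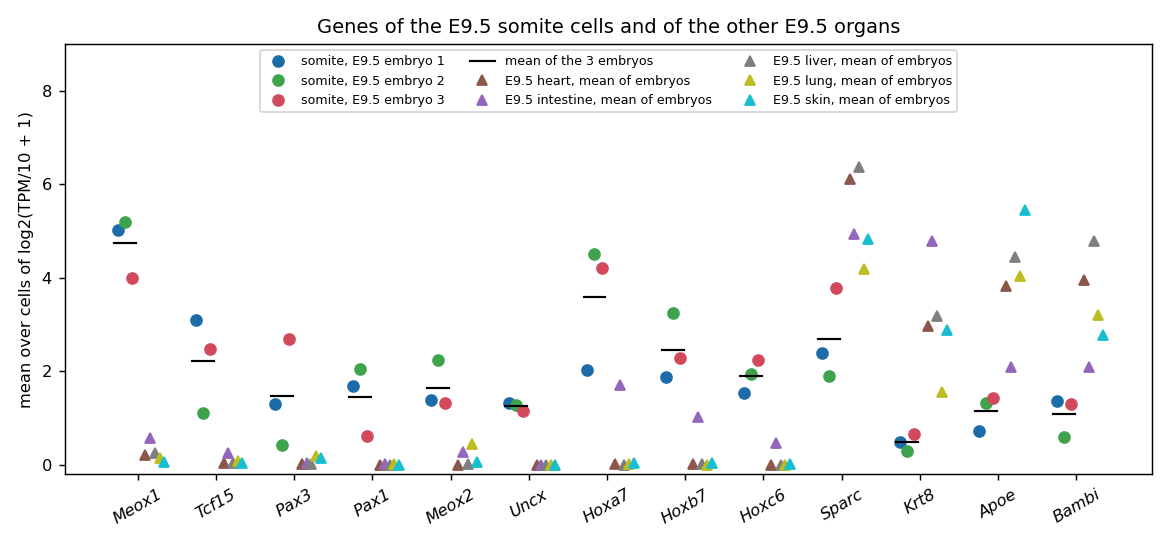
Level of 13 genes (mean over cells of log2(TPM/10 + 1)) in each of the 3 E9.5 somite embryos (circles, with a bar for their mean) and in 5 other E9.5 organs (triangles, means of their embryos). For *Meox1* the circles lie between 4.00 and 5.20 and the triangles between 0.07 and 0.57, whereas for *Sparc*, *Krt8*, *Apoe* and *Bambi* the order is turned.

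Several somite genes differed among embryos and were not called by limma in the main fit. *Foxc1* and *Foxc2*, forkhead factors of the paraxial mesoderm, had levels of 2.88, 1.86 and 0.52 and of 3.09, 1.48 and 0.46, with differences of 1.33 (adjusted p 0.0895) and 1.35 (adjusted p 0.101). *Dmrt2* had 1.04, 0.19 and 2.51 (1.22, adjusted p 0.073), and *Pax9* had a difference of 0.87 (adjusted p 0.0432), under the threshold of 1. *Dmrt2* was expressed in 1 and *Pax9* in 0 of the 336 other cells. Both thus passed the filter through the somite cells, and their p-values add no support. The order of the embryos was the same for *Foxc1* and *Foxc2*, with embryo 3 lowest, and another for *Dmrt2*, with embryo 3 highest. With the embryo as a block *Foxc1* was called (1.29, adjusted p 0.0477). EdgeR on summed UMIs called *Foxc1*, *Foxc2*, *Dmrt2* and *Pax9*.

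Among the other genes called higher, *Arg1*, an enzyme that splits arginine, had levels of 5.99, 4.09 and 1.92 (difference 3.02, SE 0.62, adjusted p 0.037), and *Psat1*, an enzyme of serine synthesis, 4.47, 4.30 and 3.34 (1.78, SE 0.28, adjusted p 0.00673). *Ccne1*, the cyclin that drives entry into S phase, had 3.79, 4.21 and 4.02 (1.71, SE 0.32, adjusted p 0.0196), and *Tcf12*, a partner of myogenic and other helix-loop-helix factors, 4.05, 5.18 and 4.11 (1.68, SE 0.25, adjusted p 0.0043). *Arg1* was highest in embryo 1 and in embryo 3 lay inside the range of other organs, which reached 3.87, whereas *Ccne1* was nearly equal in all 3.
*Nkd2*, an inhibitor of Wnt signalling (difference 1.67, adjusted p 0.00347), *Ntn1*, the guidance cue netrin 1 (1.49, adjusted p 0.0026), *Wnt16*, a Wnt ligand (1.28, adjusted p 0.0173) and *Rgmb*, a coreceptor for bone morphogenetic proteins (1.11, adjusted p 0.0432), were also called, as was *Spsb4* (1.64, adjusted p 0.00841).

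The genes called lower included *Myl7*, a myosin light chain of the atrium, at 0.68, 0.65 and 0.83 in the somite embryos and 0.57 to 8.49 elsewhere (difference −3.03, SE 0.51, adjusted p 0.0101). Its somite levels lay inside the range of the other organs, and without the heart it was not called (−1.85, adjusted p 0.262). The apolipoprotein gene *Apoe* had 0.72, 1.32 and 1.44 against 1.37 to 6.08 (−2.81, SE 0.47, adjusted p 0.01), and *Sparc*, a matrix glycoprotein, 2.40, 1.90 and 3.79 against 4.06 to 6.54 (−2.59, SE 0.35, adjusted p 0.00286). *Sparc* was thus lower in each somite embryo than in any of the 12 other means.
*Krt8* and *Krt18*, keratins of simple epithelia, had differences of −2.60 (adjusted p 0.0139) and −2.13 (adjusted p 0.0357), and *Bambi*, a decoy receptor that dampens TGF-beta signalling, −2.27 (adjusted p 0.00841). *Vim*, the intermediate filament of mesenchyme, was at 2.96, 1.96 and 4.05 against 3.86 to 5.76 (−1.70, SE 0.37, adjusted p 0.0474), with embryo 3 inside the range of the other organs.

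Lateral plate factors stood low. Of the 21 genes of limb and lateral plate mesoderm, 4 were called lower (0.3% of all genes tested were) and 0 higher, 20 had a difference below 0 and the median was −0.60. *Gata4*, *Gata5* and *Gata6*, zinc finger factors of heart and gut mesoderm, had somite levels of at most 0.18 in any embryo and differences of −1.72 (adjusted p 0.0043), −1.19 (adjusted p 0.00346) and −1.34 (adjusted p 0.0287), and *Hand2* was at 0.01 or less (−1.33, adjusted p 0.0287). Without the heart none of these 4 genes was called, with −1.26 for *Gata4* (adjusted p 0.0852), −0.97 for *Gata5* (adjusted p 0.0253, under the size required), −1.01 for *Gata6* (adjusted p 0.156) and −0.97 for *Hand2* (adjusted p 0.233). Of the other genes named in this comparison, *Arg1*, *Ccne1*, *Krt18*, *Rgmb*, *Vim* and *Wnt16* also lost their call there, at adjusted p values of 0.0545 to 0.148.

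Against single organs in the same fit, the number of genes called ran from 27 against the lung (0.184%, 14 higher, 0.0954%, and 13 lower, 0.0886%) to 562 against the heart (3.83%), with 77 against the intestine (0.525%), 179 against the liver (1.22%) and 74 against the skin (0.504%). Leaving out the heart reduced the calls to 31, 18 of them higher. *Meox1* was higher against each organ, by 4.17 (intestine) to 4.67 (skin), and *Uncx* by 1.25 against each. *Hoxa7* was called against the heart (3.58), the liver (3.58), the lung (3.57) and the skin (3.55), and had a difference of 1.87 against the intestine (adjusted p 0.188).

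Markers of other cell types were low but not at 0. Of 10 endothelial markers, 2 (*Cdh5* and *Esam*) had 0 UMIs, and their summed level was 1.2 to 2.03 in the somite embryos against 1.81 to 12.25 in the other organs. No neural crest or neural tube marker reached a level of 1 in any embryo, and the 6 epithelial markers summed to 0.70 to 2.81 against 4.32 to 13.79. Erythroid markers summed to 1.33, 6.01 and 0.23 in embryos 1, 2 and 3, and *Hbb-y*, an embryonic globin, was expressed in 26 of 26 cells of embryo 2 but in 2 of 24 and 1 of 30 cells of the others. The part of red cell RNA in results on embryo 2 was not tested. Of 20 presomitic and segmentation clock genes, 11 were tested, 8 had a difference above 0 with a median of 0.03, and limma and edgeR called 0, with 4 at an unadjusted p under 0.05 in limma. *Dll3*, a Notch ligand of the presomitic mesoderm, had levels of 1.13, 0.60 and 0.16 (difference 0.58, adjusted p 0.0586), and *Dll1*, another Notch ligand, 0.33, 0.13 and 0.25 (0.20, adjusted p 0.0267, under the size required). *Ripply1*, a repressor at the somite boundary, was expressed in 6 of 80 somite cells and 0 of 336 others. *Tbx6*, *Mesp2*, *Ripply2*, *Wnt3a*, *Nkx1-2* and *Cdx4* had 0 UMIs in all 80 cells, and *T*, the brachyury gene, and *Msgn1* were expressed in 0 of 80, which allows up to 3.75% of cells.

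The Hox genes divided the 3 embryos. The highest paralog group expressed was group 10 in 21 of 24 cells of embryo 1, with group 11 in the other 3, and group 9 in 24 of 26 cells of embryo 2. In embryo 3 it was group 7 in 9 cells, group 8 in 15 and group 9 in 6 of 30. No cell of embryo 1 had a lower limit than any cell of embryos 2 and 3, and the median group was 10, 9 and 8, the same in cells thinned to 100000 UMIs.

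*Hoxc9* had levels of 4.59, 3.29 and 0.07, and was expressed in 24 of 24, 20 of 26 and 1 of 30 cells of embryos 1, 2 and 3. *Hoxc10* had 4.02, 0.00 and 0.06, and *Hoxa10* 2.55, 0.00 and 0.02, and they were expressed in 23 and 21 of 24 cells of embryo 1 and in 0 cells of the others. In embryo 1 the anterior gene *Hoxb1* was also at 2.24, against 0.28 and 0.14 in embryos 2 and 3. All 80 cells expressed a Hox gene of groups 5 to 8, and each had at least 1 Hox gene, while 124 of 336 cells of the other E9.5 organs had none.

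**Figure D2:**
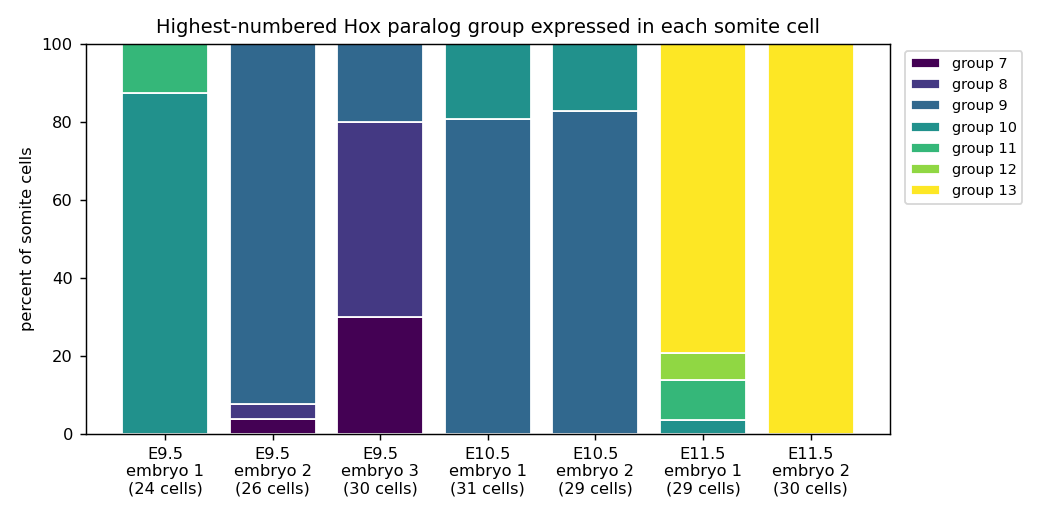
Percent of somite cells of each embryo whose highest-numbered expressed Hox paralog group was 7 to 13 (stacked bars, 24 to 31 cells per embryo). The 3 E9.5 embryos differ, with group 10 in most cells of embryo 1, group 9 in embryo 2 and groups 7 and 8 in embryo 3, and both E11.5 embryos reach group 13.

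Against the other E9.5 organs, 3 of 33 Hox genes tested were called higher (0.184% of all genes tested were), 30 had a difference above 0 and the median was 0.54. *Hoxa7* had levels of 2.03, 4.50 and 4.22 (difference 3.23, SE 0.48, adjusted p 0.00432), *Hoxb7* 1.88, 3.24 and 2.28 (2.24, SE 0.27, adjusted p 0.00148) and *Hoxc6* 1.54, 1.95 and 2.25 (1.82, SE 0.15, adjusted p 3.46e-05). All 3 genes were detected in every somite embryo, and in other organs the highest mean was that of the intestine, at 1.71, 1.02 and 0.46. *Hoxa7* in embryo 1 lay below the highest single mean of another organ, 2.84, while *Hoxb7* and *Hoxc6* did not overlap. The antisense transcript *Hoxb5os*, which cannot be told apart from an overlapping gene where counting ignores strand, had 3.29, 3.58 and 1.46 (2.56, adjusted p 0.00325).
Limma did not call the posterior genes: *Hoxc9* had a difference of 2.06 (SE 0.73, adjusted p 0.247) and *Hoxc10* 0.87 (SE 0.66, adjusted p 0.653), and the intestine reached 2.93 and 2.42 for them. EdgeR on summed UMIs called 21 of the 33 Hox genes, *Hoxc8*, *Hoxc9* and *Hoxc10* among them, where it called 162 of all 14678 genes. *Hoxc8*, at 2.0, 2.97 and 1.2, had 1.75 (adjusted p 0.0552) and passed when the embryo was the block (1.81, adjusted p 0.0236).

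**Figure D3:**
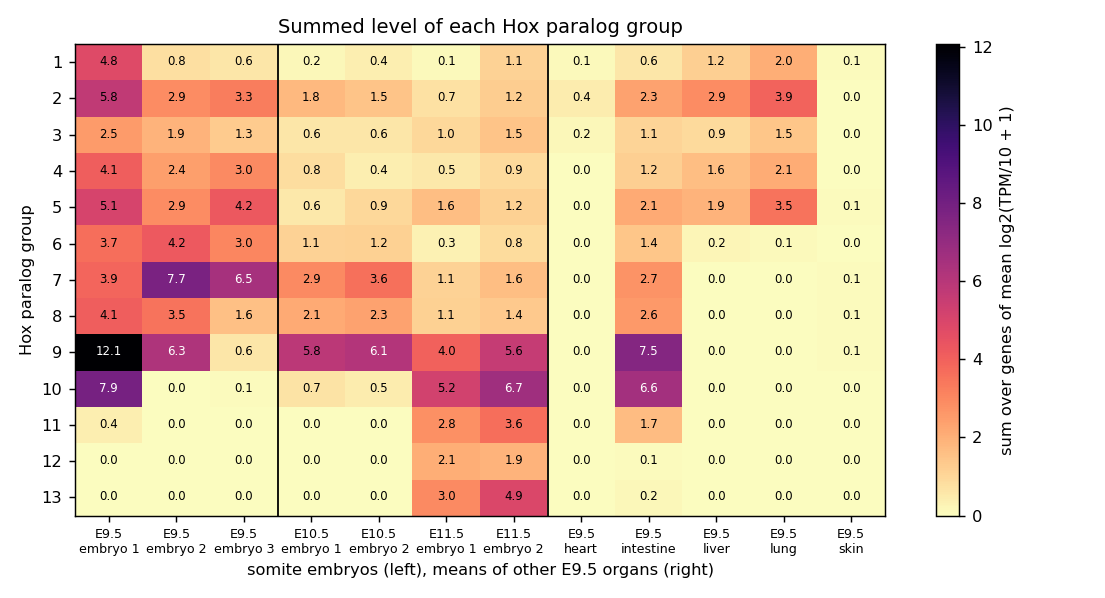
Sum over the genes of each Hox paralog group (rows, 1 to 13) of the mean log2(TPM/10 + 1), for the 7 somite embryos and the means of 5 other E9.5 organs. Group 9 sums to 12.07, 6.27 and 0.57 in the E9.5 somite embryos and group 10 to 7.91, 0.00 and 0.08, while heart and skin are below 0.5 in every group.

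The embryos also differed in the parts of the somite they represented. Summed levels of 15 sclerotome and cartilage genes were 16.35, 20.81 and 5.78 in embryos 1, 2 and 3, those of 12 dermomyotome genes 6.60, 5.05 and 11.43, and those of 20 myotome genes 12.07, 8.46 and 27.02. Embryo 3 was thus lowest in the first sum and highest in the other two, and with 1 library for each embryo, embryo and the cells picked cannot be told apart.

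Single cells were sorted by 2 pairs of genes, *Pax3* or *Dmrt2* and *Pax1* or *Pax9*, chosen after their values were seen. *Pax3* or *Dmrt2* without the other pair was expressed in 7 of 24, 2 of 26 and 23 of 30 cells of embryos 1, 2 and 3, which are 29.2% (exact interval 12.6 to 51.1), 7.69% (0.946 to 25.1) and 76.7% (57.7 to 90.1). *Pax1* or *Pax9* without the first pair was expressed in 11, 19 and 2 cells, which are 45.8% (25.6 to 67.2), 73.1% (52.2 to 88.4) and 6.67% (0.818 to 22.1). Both pairs together occurred in 7 of 80 cells and neither in 9. The intervals cover the counting of cells within 1 library, so the difference between embryos was not tested. After thinning to 100000 UMIs the shares with *Pax3* or *Dmrt2* alone were 27.3%, 3.85% and 70.4%.

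**Figure D4:**
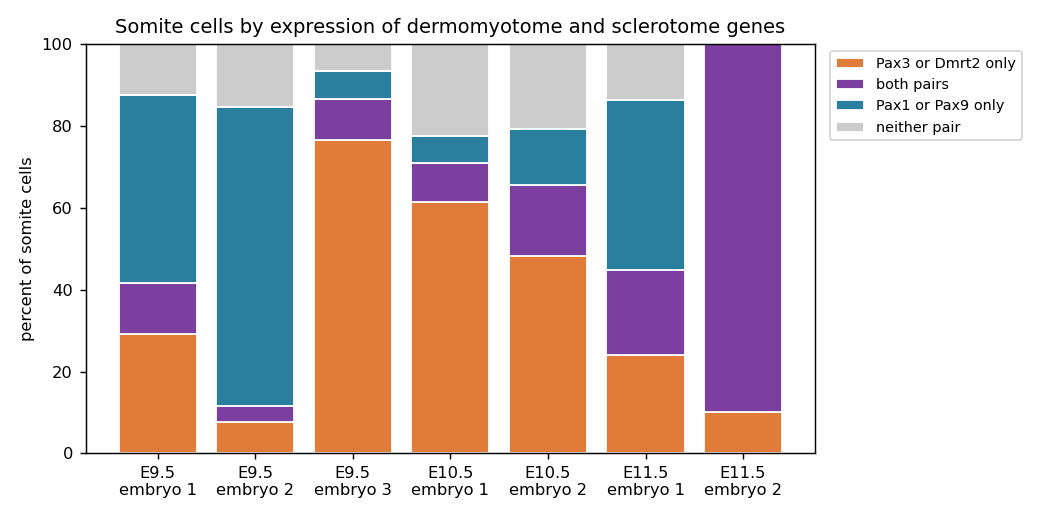
Percent of somite cells in each of 7 embryos that expressed *Pax3* or *Dmrt2* only, both pairs, *Pax1* or *Pax9* only, or neither pair (stacked bars). At E9.5 the first class holds 29.2%, 7.69% and 76.7% of the cells of embryos 1, 2 and 3, and at E11.5 both pairs occur in 27 of 30 cells of embryo 2.

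*En1*, a homeodomain gene of the central dermomyotome, was expressed in 0 of 24, 1 of 26 and 15 of 30 cells of embryos 1, 2 and 3. *Myog*, which drives muscle cells to differentiate, was expressed in 0, 0 and 11 cells, and *Aldh1a2*, the enzyme that makes retinoic acid, in 17, 10 and 2. *Sox9*, the cartilage factor, was expressed in 20, 24 and 7. Cells with *En1* or *Myog* were thus nearly all from embryo 3, and those with *Aldh1a2* mostly from embryos 1 and 2.

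Embryo 1 alone held enough cells of both classes to describe them side by side, 11 with *Pax1* or *Pax9* and 7 with *Pax3* or *Dmrt2*. *Sox9* had a mean of 3.76 in the former and 1.0 in the latter, *Cdh11*, a cadherin of mesenchyme, 4.58 and 1.93, and *Hhip*, a target and inhibitor of Hedgehog signalling, 1.41 and 0.07. *Sim1*, a dermomyotome gene, had 0.00 and 0.98. *Meox1* was alike in level, at 5.23 and 4.97. These cells came from 1 animal, so no test was made.

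Against the later somite, the E9.5 somite had few calls. Limma called 10 of 12919 genes (0.0774%), 3 higher (0.0232%) and 7 lower (0.0542%) at E9.5, with 1441 at an unadjusted p under 0.05. All 10 had an adjusted p of 0.0498, just inside the threshold. When repeated profiles were kept, when cells were thinned to 100000 UMIs or when no gene filter was applied, 0 genes were called (1386, 1427 and 1576 at an unadjusted p under 0.05), and edgeR called 1, *Wfikkn1*, which encodes a protein that binds growth factors of the TGF-beta family.

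The count depended on single embryos. Without E9.5 embryo 3, 259 of 12717 genes were called (2.04%), 156 higher (1.23%) and 103 lower (0.81%), with all 10 genes among them. Without any 1 of the other 6 embryos it was 0 to 18, with 18 without E11.5 embryo 1 and 2 without E11.5 embryo 2. Embryo 3 is also the only E9.5 embryo sequenced on the same instrument as the later embryos, and among the HiSeq 4000 samples alone 9 genes were called, 5 of them higher at E9.5. Instrument, pooling, the somites that were picked and embryo cannot be told apart.

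The genes of muscle were low at E9.5. *Tnnt1*, slow skeletal troponin T, had levels of 0.33, 0.01 and 1.71 at E9.5, 3.55 and 3.21 at E10.5 and 2.74 and 4.23 at E11.5 (difference −2.75, SE 0.41, adjusted p 0.0498). *Ttn*, the giant sarcomere protein titin, had 0.06, 0.12 and 1.21, then 2.29 and 2.0, then 2.55 and 4.40 (−2.34, SE 0.40, adjusted p 0.0498). Every later embryo was above every E9.5 embryo for both. Among the HiSeq 4000 samples they had −1.72 (adjusted p 0.529) and −1.60 (adjusted p 0.838), with 1 E9.5 embryo. Without E11.5 embryo 2 they had −2.38 and −1.88 and were not called (adjusted p 0.211 for both).
Of the 20 muscle genes tested, 2 were called lower (0.0542% of all genes tested were) and all 20 had a difference below 0, with a median of −1.45 against 0.00 over all genes. Without embryo 3, 11 of the 20 were called lower (0.81% of all genes in that fit were) and the median was −1.72. *Myog* had 0.00, 0.00 and 1.66 at E9.5, 2.42 and 2.25 at E10.5 and 2.24 and 4.32 at E11.5 (−2.25, SE 0.47, adjusted p 0.104), and *Myf5*, the first myogenic factor switched on, 0.21, 0.05 and 1.04 at E9.5 and 1.30 to 2.61 later (−1.52, SE 0.34, adjusted p 0.128). At least 1 of 4 myogenic factors was expressed in 3 of 24, 2 of 26 and 12 of 30 cells at E9.5 and in 105 of 119 later cells (88.2%), against 3 of 336 cells (0.893%) of the other E9.5 organs.

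**Figure D5:**
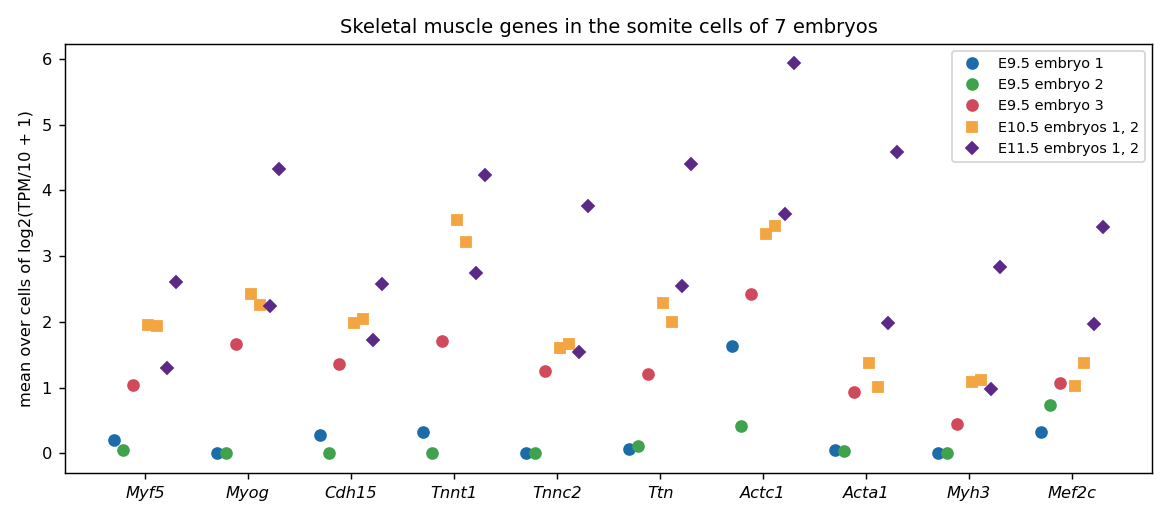
Level of 10 skeletal muscle genes (mean over cells of log2(TPM/10 + 1)) in the somite cells of 3 E9.5, 2 E10.5 and 2 E11.5 embryos, with 1 point for each embryo. E9.5 embryos 1 and 2 lie near 0 for *Myog* and *Tnnt1*, embryo 3 at 1.66 and 1.71, and the later embryos at 2.24 or more.

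*Bcl11a*, a zinc finger repressor, and *Lima1*, an actin-binding protein, were the other genes called lower that belong to neither muscle nor Hox clusters nor globins. *Bcl11a* had 0.00, 0.13 and 0.52 at E9.5 and 1.70 to 2.37 later (−1.74, SE 0.25), and *Lima1* 1.21, 1.72 and 1.16 against 2.63 to 3.22 (−1.56, SE 0.25), both at adjusted p 0.0498 and with no overlap between E9.5 and later embryos. *Mogat2*, an enzyme of triglyceride synthesis, was higher, at 2.70, 2.87 and 2.42 against 0.72 to 1.64 (1.63, SE 0.28, adjusted p 0.0498). *Bcl11a* was still called without E11.5 embryo 2 (−1.82, adjusted p 0.0453), together with *Hoxa11os* and no other gene named here.

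The embryonic globin *Hbb-y* had 0.37, 2.05 and 0.07 at E9.5, 6.00 and 5.80 at E10.5 and 0.11 and 0.56 at E11.5 (difference −2.28, SE 0.39, adjusted p 0.0498). The E10.5 embryos stood above all others and the E11.5 embryos within the range of E9.5. Red cell markers summed to 16.54 and 15.84 at E10.5 against 0.23 to 6.01 at E9.5, and *Hbb-y* was expressed in 31 of 31 and 29 of 29 cells there, and the part of red cell RNA in the result was not tested. In the single step from E9.5 to E10.5, 7 genes were called (0.0542%), all higher at E10.5, among them the globins *Hbb-y*, *Hbb-bh1* and *Hba-x*, *Filip1l* and *Tbx3*. *Tbx3*, a T-box repressor, went from 0.09, 0.05 and 0.25 to 2.23 and 1.19.

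Among Hox genes, *Hoxc6* and *Hoxc4* were higher at E9.5 and *Hoxd11* and the antisense transcript *Hoxa11os* lower, where 36 Hox genes without antisense transcripts were tested. *Hoxc6* had 1.54, 1.95 and 2.25 at E9.5, 0.71 and 0.60 at E10.5 and 0.08 and 0.17 at E11.5 (1.53, SE 0.24), and *Hoxc4* 1.43, 1.44 and 2.06, then 0.53 and 0.21, then 0.25 and 0.09 (1.37, SE 0.23), each with no overlap. *Hoxd11* was at 0.08 or less at E9.5, at 0.00 in both E10.5 embryos and at 1.92 and 2.32 at E11.5 (−1.03, SE 0.17), with every change after E10.5. Between E10.5 and E11.5, 13 genes were called (0.101%), 7 higher (0.0542%) and 6 lower (0.0464%) at E11.5, and *Hoxd11* (2.12, adjusted p 0.00064), *Hoxd12* (1.29), *Hoxd13* (1.54), *Hoxc13* (2.35) and *Hoxa11os* (2.36) rose. No E9.5 somite cell expressed a Hox gene above group 11 and no E10.5 cell one above group 10. *Hoxd12*, *Hoxd13* and *Hoxc13* thus entered the test only through E11.5 cells and had to differ, so their calls add no support. *Hoxd11* was expressed in no E10.5 cell and was near 0 at E9.5. It passed the filter chiefly through E11.5 cells, so its calls add no support either.
Among the HiSeq 4000 samples, where E9.5 is embryo 3 alone and is assumed to vary like the other samples, *Hoxc6* had 1.86 (adjusted p 0.0294) and *Hoxc4* 1.79 (adjusted p 0.0228). The E10.5 cells had group 9 as highest group in 25 of 31 and 24 of 29, and the E11.5 cells group 13 in 23 of 29 and 30 of 30, so stage and the axial level of the cells picked cannot be told apart for these genes.

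None of the 4 label genes was called between E9.5 and later somites. *Meox1* had 4.08 to 4.68 in the later embryos (difference 0.38, SE 0.28, adjusted p 0.654), *Tcf15* 2.17 to 2.83 (−0.24, SE 0.38, adjusted p 0.852), *Pax3* 0.77 to 2.20 (−0.11, SE 0.47, adjusted p 0.956) and *Pax1* 0.59 to 2.71 (−0.18, SE 0.32, adjusted p 0.871). The E9.5 range of each overlapped the later range. With 7 embryos these tests do not show that the levels are equal.

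The stage change of the somite was set against that of heart, intestine, lung and skin over 15619 genes, of which 24 were called (0.154%), 18 with a more positive change in the somite (0.115%) and 6 with a more negative one (0.0384%). EdgeR called 3 genes, none of them among the 24. Skeletal muscle genes supplied 10 of the 18, of 20 muscle genes tested, with all 20 above 0 and a median of 1.49 against 0.04 over all genes. *Ttn* rose by 2.34 in the somite after E9.5 and changed by −1.73 in the heart, −0.09 in the intestine, −0.32 in the lung and 0.00 in the skin (difference 2.88, SE 0.38, adjusted p 0.000214). *Tnnt1* (2.69, adjusted p 0.000587), *Myog* (2.31, adjusted p 0.00517), *Myf5* (1.5, adjusted p 0.0021), *Actc1*, cardiac actin that embryonic muscle also uses (3.0, adjusted p 0.00783), and *Cdh15*, a cadherin of muscle cells (1.48, adjusted p 0.00732), were called with it. The regulatory light chain gene *Mylpf* was called too (2.77, adjusted p 0.00732). Of the 336 other E9.5 cells, 0 expressed *Myog* and 1 expressed *Myf5*, against 110 for *Ttn* and 94 for *Tnnt1*. *Myog* and *Myf5*, both among the 10, thus passed the filter chiefly through somite cells. Their p-values in this comparison, with or without E11.5 embryo 2, add no support.
Without the somite of E11.5 embryo 2, 19 genes were called, 18 of them among the 24, and *Ttn* had 2.42 (adjusted p 0.000295), *Tnnt1* 2.32 (adjusted p 0.00218), *Myog* 1.79 (adjusted p 0.0046) and *Myf5* 1.17 (adjusted p 0.000935). *Acta1* (1.66, adjusted p 0.0625), *Aldh1a2* (−2.54, adjusted p 0.0525), *Hbb-y* (2.93, adjusted p 0.0812) and *Hbb-bh1* (2.74, adjusted p 0.106) were not called there, nor were *Myh3* (0.91) and *Hoxc13* (0.78), whose differences fell below 1. The count was 47 without the somite of E11.5 embryo 1, 15 without that of E10.5 embryo 1, and 11, 12 and 45 without E9.5 embryos 1, 2 and 3.

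*Aldh1a2* changed by −1.08 in the somite, by 5.08 in the intestine and by 1.55 in the heart (difference −2.5, SE 0.49, adjusted p 0.0239), from somite levels of 2.61, 0.97 and 0.21 at E9.5 and 0.02 to 0.42 later. *Hoxc6* (−1.65, SE 0.18, adjusted p 1.58e-05), *Hoxc4* (−1.49, adjusted p 0.00374) and *Hoxb7* (−1.70, adjusted p 0.0139) changed by −1.37 to −1.58 in the somite and by 0.53 to 0.91 in the intestine. *Mgp*, an inhibitor of calcification, was called (−1.82, adjusted p 0.018) with a change of 4.27 in the lung and −0.36 in the somite. *Hbb-y* (3.04, adjusted p 0.0239) and *Hbb-bh1* (2.79, adjusted p 0.0325) were called with a change of −5.07 and −4.09 in the lung.

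Other gene groups gave values without calls. All 16 genes of ribosome biogenesis and Myc targets had a difference above 0 against the other E9.5 organs (median 0.59) and against the later somite (median 0.63). Limma and edgeR called 0 of them in either comparison, with 8 and 12 at an unadjusted p under 0.05 in limma. *Ncl*, the nucleolar protein nucleolin, had levels of 7.74, 7.64 and 7.15 and a difference of 0.65 against the other organs (SE 0.15, adjusted p 0.0543), and *Ldha*, lactate dehydrogenase, 8.31, 7.74 and 8.35 against 6.84 to 7.38 in the later somites (0.90, SE 0.18, adjusted p 0.101). Without embryo 3, 5 of the 16 were called higher than in the later somite (1.23% of all genes in that fit were), among them *Srm*, spermidine synthase (2.30, adjusted p 0.00417), and *Dkc1*, dyskerin (1.76, adjusted p 0.00371). Among the HiSeq 4000 samples, with embryo 3 as the only E9.5 embryo, *Srm* had 0.35 and *Dkc1* 0.19. The 16 genes ran there from −0.2 (*Eif4a1*) to 1.12 (*Ldha*). Of 31 matrix genes, 25 had a difference below 0 against the later somite, with 0 called by limma or edgeR and 10 at an unadjusted p under 0.05 in limma. Without embryo 3, the fibrillin gene *Fbn2* (1.53, adjusted p 0.00351) and *Fstl1* (1.37, adjusted p 0.00635) were called higher at E9.5 and *Sparc* lower (−2.01, adjusted p 0.00401). In the HiSeq 4000 samples alone *Fbn2* had −0.65, *Fstl1* −0.11 and *Sparc* −0.36. *Col3a1*, fibrillar collagen, had 1.06, 4.35 and 2.62 at E9.5 and 3.22 to 5.17 later (−1.64, SE 0.55, adjusted p 0.328), so the E9.5 embryos overlapped with the later ones.

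Lists of signalling genes had 0 calls against the later somite by limma or edgeR, with 14 of 67 list entries at an unadjusted p under 0.05 in limma: Hedgehog response (9 tested, median −0.22), Wnt response (10, 0.03), the Notch pathway (12, 0.01), FGF response (11, −0.34), retinoic acid (12, −0.07) and response to BMP and TGF-beta (13, 0.07). Against the other E9.5 organs *Bambi* was the only gene of these lists that limma called, and edgeR called 4 list entries.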

How the data were processed

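The deposited values are CPM (each gene's UMIs scaled to 1000000 in the cell), which the authors named TPM and to which no gene length was applied. Cells had been picked by mouth pipette and libraries made from 3′ ends in a modified STRT protocol. The labels describe cells from another tissue in their protocol text for some samples. Per the submitters' processing notes, the authors used CASAVA 1.8, TopHat2 2.0.12, HTSeq and mm10, and by the methods they removed UMI duplicates. The HTSeq version, annotation and strand setting are not given in the sources used here. Whole UMIs were recovered for 100% of values (tolerance 0.05), and cell totals equalled the study's sheet in all 1916 cells. Organ, embryo and group came from file labels and that sheet. The files name cells by number and give no barcodes to compare. Of 14 repeated profiles in the series, each was counted once.

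Means of log2(TPM/10 + 1) over at least 3 cells per organ and embryo were fitted with limma 3.58.1 in R 4.3.3 (eBayes with trend). Genes expressed in at least 3 cells were tested. The script was tested on simulated data. Alternatives were log2(TPM + 1), no gene filter, expression in at least 10% of cells, edgeR 4.0.16 on summed UMIs, cells thinned to 100000 UMIs, the embryo as a block, leaving out the heart or each embryo, the other organs' cells as 1 set per embryo, HiSeq 4000 samples alone and E10.5 alone; repeated profiles kept, and each later somite left out of the comparison of stage changes, were added after seeing the data. By the labels, organs of 1 embryo are from the same animal, and same-embryo deviations of somite and organ correlated at r 0.082 to 0.412. The members and gene lists were chosen with earlier results of these data known. Named genes were the 12 largest called differences per direction with 1 sign in all 3 embryos, and list members, of which some are not reported here. Positions are from GENCODE M21 (GRCm38). Intervals of shares are exact (Clopper-Pearson, 95%), and limits for 0 cells use 3 counts.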

Additional observations from a re-analysis of the deposited data

Results flagged for a closer look

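The stage change of the somite differed from that of the other organs by the test of the difference itself for *Hbb-y* (3.04), *Actc1* (3.0), *Ttn* (2.88), *Hbb-bh1* (2.79), *Mylpf* (2.77), *Tnnt1* (2.69), *Myog* (2.31), *Acta1* (2.31), *Tnnc2* (1.75), *Mef2c* (1.63) and *Myf5* (1.5), whose change was more positive in the somite on the log2 scale. The difference was negative for *Aldh1a2* (−2.5), *Hoxb5os* (−2.09), *Mgp* (−1.82), *Hoxb7* (−1.70), *Hoxc6* (−1.65) and *Hoxc4* (−1.49). Without the somite of E11.5 embryo 2, *Hbb-y*, *Hbb-bh1*, *Acta1* and *Aldh1a2* were not called. The calls of *Myog* and *Myf5* add no support, since both passed the filter chiefly through somite cells. The globin values moved with red cell markers, whose summed level was 16.54 and 15.84 in the E10.5 somites, and their part in the result was not tested.

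Outside the cells compared, the 10 somite cells of E9.5 embryo 2 in the neuronal group had a mean *Hoxc9* level of 5.51, with the gene expressed in 10 of 10 cells (5652 UMIs) and in 0 of 75 neuronal brain cells of the same embryo (3 UMIs). In these somite cells *Hoxa7* was at 4.48 and *Neurod4*, a proneural factor, at 4.88, against 0.02 and 0.29 in the brain cells, and *Meox1* was at 1.05 and expressed in 3 of 10. No test was made, since they come from 1 embryo.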

How the results depend on the processing

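Depth varied by embryo, each stage had 2 or 3 embryos, and instrument and sampling could not be separated from embryo. The 71 genes called against the other E9.5 organs became 124 on log2(TPM + 1), 162 with edgeR (102 higher, 63.0% against 38.0%), 115 with the embryo as replicate block, 31 without the heart (58.1% higher) and 1, *Meox1*, with the other cells as 1 set per embryo, and 0 to 35 when an embryo was left out (13 without embryo 1, 0 without embryo 2, 35 without embryo 3). Against the later somite the 10 calls became 28 on log2(TPM + 1), 1 with edgeR, 0 with no gene filter, 0 in thinned cells, 0 with repeated profiles kept, and 0 to 259 when an embryo was left out, 259 without E9.5 embryo 3, 18 without E11.5 embryo 1, 3 without E9.5 embryo 2, 2 without E11.5 embryo 2, 1 without E9.5 embryo 1 or E10.5 embryo 2 and 0 without E10.5 embryo 1. For E9.5 against E10.5 alone 7 genes were called, and *Hoxa11os* (0.06) and *Hoxd11* (0.03) turned sign, while *Hoxd12* and *Hoxd13* had no difference (0.00 and 0.00). The 24 differences of stage change became 51 on log2(TPM + 1) and 3 with edgeR, where *Hoxb7* turned to 0.29, and 11 to 47 when an embryo was left out. With the embryo as replicate block they became 26, including all 24. The block newly called *Foxc1*, *Hoxc8* and *Mogat2* against the other organs and *Hba-x* in the difference of stage change, and changed no other call of a gene named in the report, and the stages share no embryos to pair. For marker sets in single somite cells, the share with at least 1 label gene was 97.3% in thinned cells and ran from 96.3% to 100% when an embryo was left out. The causes were not tested.

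*Meox1* was called in 11 of 12 alternatives (4.24 to 7.20), *Hoxc6* in 10 of 12, *Uncx* in 9 of 11, *Pax1* in 8 of 11, *Tcf15* in 8 of 12 and *Pax3* in 5 of 11. The counts for *Uncx* and *Pax1* add no support, since both entered the test only through the somite cells and had to differ. *Tnnt1* and *Ttn* kept their difference of stage change in 14 of 15. Against the later somite, *Tnnt1* and *Ttn* were each called in only 4 of 15 alternatives and *Hbb-y* in 5 of 15.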
